A study of Mus musculus with 6 samples.

Results

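The genes described here are 8 components of the RAS-MAPK pathway and of its negative feedback, taken as the rows of the deposited count table with the symbols Hras, Nras, Braf, Egfr, Map2k1, Mapk3, Dusp6 and Spry2. All 8 were found among the 24181 genes of the table. Expression was measured by 3'-end RNA sequencing of bulk RNA from MC38, a mouse colon adenocarcinoma line grown in standard DMEM medium. The series has 2 groups of 3 samples, MC38 cells expressing STING-N153S, a substitution in the DNA-sensing adaptor STING, and parental MC38 cells with the genotype WT. Only the parental samples could be tied to columns of the table, so samples expressing STING-N153S were left out and no difference between the groups is given. The annotation of the table gives the 3 parental samples biological replicate numbers, without saying whether separate cultures are meant, so p-values measure only the spread between these samples, which may be technical.

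In this pathway a receptor tyrosine kinase such as EGFR recruits an exchange factor that loads the small GTPase RAS with GTP. RAS then activates a RAF kinase, RAF phosphorylates MEK, MEK phosphorylates ERK, and ERK enters the nucleus and switches on growth genes. Among the genes that active ERK induces are its own inhibitors, including the phosphatase DUSP6 and the Sprouty proteins, so that their mRNA is often read as an output of the pathway. In colorectal cancer the pathway is known for activating mutations in RAS and BRAF and for antibodies against EGFR. Counts of mRNA 3' ends read neither a mutation nor the phosphorylation of these proteins.

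The promoters of 4 of the genes are shown because these genes hold the highest level (Hras), the 2 lowest levels (Braf and Egfr) and the widest spread between libraries (Spry2). Each is the RefSeq sequence of 300 bases on GRCm38.p6, from 250 bases before to 50 after an annotated transcript start, 5' to 3' on the gene's strand. In Hras and Braf that start lies inside the gene's outermost annotated end. Capitals mark matches, on either strand, to GGGCGG (GC box), TGACGTCA (cyclic AMP response element) or CCGGAAG (the core bound by ETS factors, several of which ERK phosphorylates). The positions are chr7:141193955-141194254 on the minus strand for Hras, chr6:39725414-39725713 on the minus strand for Braf, chr11:16751953-16752252 on the plus strand for Egfr and chr14:105896770-105897069 on the minus strand for Spry2.
Hras: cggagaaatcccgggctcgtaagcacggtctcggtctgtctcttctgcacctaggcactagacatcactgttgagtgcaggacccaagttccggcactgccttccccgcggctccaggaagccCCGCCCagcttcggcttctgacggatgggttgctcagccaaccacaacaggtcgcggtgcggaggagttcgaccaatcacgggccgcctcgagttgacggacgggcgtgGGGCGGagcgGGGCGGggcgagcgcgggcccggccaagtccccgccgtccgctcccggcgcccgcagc
Braf: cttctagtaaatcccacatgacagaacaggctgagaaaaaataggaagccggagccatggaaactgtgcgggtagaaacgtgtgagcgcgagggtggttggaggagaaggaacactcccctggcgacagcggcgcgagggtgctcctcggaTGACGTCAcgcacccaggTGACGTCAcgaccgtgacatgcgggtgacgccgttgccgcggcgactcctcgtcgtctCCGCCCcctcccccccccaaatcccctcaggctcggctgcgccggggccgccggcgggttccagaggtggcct
Egfr: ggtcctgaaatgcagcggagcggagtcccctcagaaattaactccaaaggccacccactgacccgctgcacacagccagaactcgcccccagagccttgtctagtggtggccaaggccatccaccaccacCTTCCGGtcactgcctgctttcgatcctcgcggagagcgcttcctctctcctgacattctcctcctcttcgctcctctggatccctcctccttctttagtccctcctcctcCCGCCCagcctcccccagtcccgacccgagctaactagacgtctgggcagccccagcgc
Spry2: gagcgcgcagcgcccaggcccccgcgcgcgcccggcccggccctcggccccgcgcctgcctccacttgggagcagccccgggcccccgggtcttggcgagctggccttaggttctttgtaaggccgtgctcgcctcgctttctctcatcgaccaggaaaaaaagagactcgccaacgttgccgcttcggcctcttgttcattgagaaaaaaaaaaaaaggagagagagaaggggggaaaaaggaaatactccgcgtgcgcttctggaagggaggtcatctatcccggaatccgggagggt

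A promoter sequence was given for 7 of the 8 genes, and Mapk3 was the gene with none. Hras and Nras held 3 GC boxes each, Map2k1 4, Braf and Egfr 1 each, and Dusp6 and Spry2 none, beside 35.7% of all 32851 mouse promoters of this length that held at least 1. In Nras 2 of the matches overlap. The cyclic AMP response element was matched 2 times in Braf and in no other of the 7, and 1.79% of all promoters held it. The ETS core was matched 1 time, in Egfr, against 8.86% of all promoters. The AP-1 motif TGANTCA and the TATA box TATAAA were searched on both strands too and matched none of the 7 windows, and were held by 7.81% and 13.6% of all promoters. The GC content of the 7 windows ran from 52.3% in Nras to 69.0% in Hras and in Map2k1, and the median of all promoters was 52.7%. A match describes letters in this window and is not evidence of binding.

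The libraries of parental replicates 1 to 3 held 3358908, 4020023 and 3210024 counts. CPM, counts per 1000000, scales the counts of a gene to the total of its library. Because the library keeps the 3' end of each transcript, CPM was not divided by transcript length, and levels of different genes are compared as counts per transcript end, which priming can also affect. Intervals given below cover counting error only. Parental replicate 3 stood apart, being farthest from the other libraries in 192 of the 311 genes that varied between libraries, against 70 for replicate 1 and 49 for replicate 2. Markers of the labelled tissue of origin were low. Of 20 intestinal epithelial markers listed, 9 had a row in the count table. Here and below, list genes without a row are not counted as analysed. Of the 9, 1 reached 1 CPM (Axin2), beside 10 of 10 mesenchymal genes, and Cdx1 and Lgr5 had 0 counts. The summed level over the libraries was 2.68 to 3.74 CPM for the epithelial list, 3843 to 4253 CPM for the mesenchymal list and 182 to 206 CPM for 8 fibroblast markers, of which 5 reached 1 CPM, led by Col3a1 and Dcn. It was 23.6 to 25.3 CPM for 8 myeloid markers, most of it Cd14, and at most 0.312 CPM for 4 lymphocyte and 1.19 CPM for 4 endothelial markers. Whether these markers bear on the RAS-MAPK levels was not tested.

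All 8 genes reached 1 CPM in the mean of the libraries, 6 reached 10 CPM and 2 reached 100 CPM, while 49.5%, 31.2% and 8.54% of all genes reached these levels. The median of the 8 was 39.9 CPM, beside 0.941 CPM over all genes and 18.8 CPM over the genes at 1 CPM or more. In falling order of mean level the genes were Hras, Nras, Map2k1, Mapk3, Spry2, Dusp6, Braf and Egfr. Of the 7 neighbouring pairs in that order, Spry2 and Dusp6 had ranges over the libraries that overlapped, and the ranges of the other 6 pairs did not. The 8 genes together took 507, 520.1 and 536 CPM in replicates 1 to 3.

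**Figure D1:**
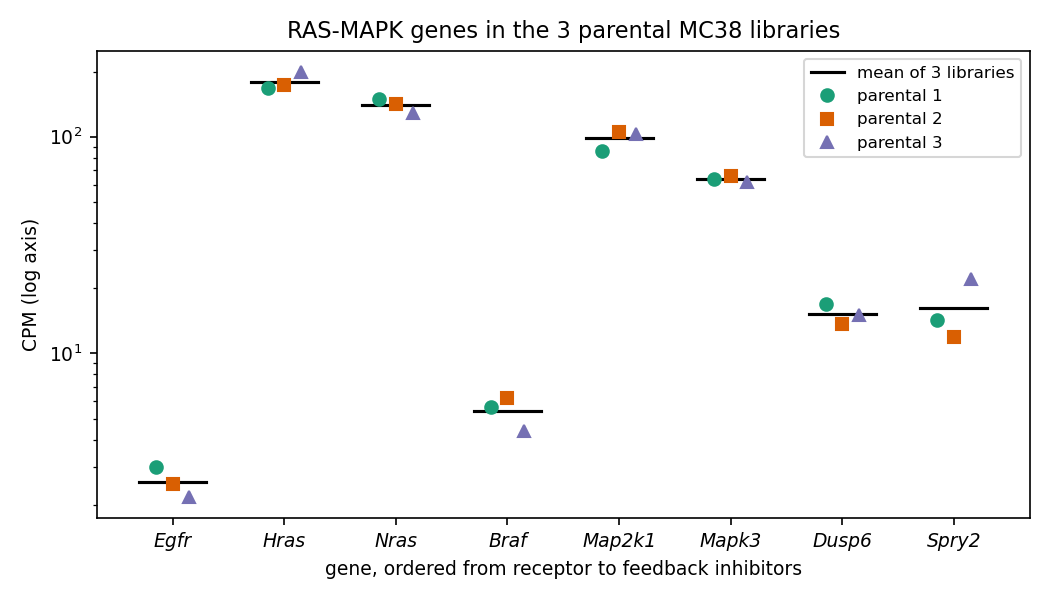
Level in CPM (log axis) of each of the 8 genes in the 3 parental libraries (points) with their mean (line). Hras, Nras, Map2k1 and Mapk3 lie between 61.7 and 199 CPM, and Egfr and Braf lie below 7 CPM in every library.

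At the receptor, Egfr (chromosome 11, 16752203 to 16913907), the epidermal growth factor receptor, had 10, 10 and 7 counts, or 2.98, 2.49 and 2.18 CPM. Its mean was 2.55 ± 0.402 CPM (SD, n = 3), the lowest of the 8 genes, and the pooled level had an exact Poisson 95% interval of 1.68 to 3.71 CPM. The level was above that of 57.6% of all genes. It had 27 counts in all, and the highest library stood at 1.37-fold the lowest. Erbb2, the ligand-less partner of EGFR, stood at 2.81 ± 0.953 CPM (SD, n = 3), with 29 counts. In the GENCODE M21 annotation its exons overlap those of Mien1 on the opposite strand, which had 102 CPM in the mean, and the strand used in counting is not stated, so the count of Erbb2 is uncertain. The ratio of Egfr to Erbb2 was 0.833, 1.43 and 0.700 in replicates 1 to 3, and its pooled interval of 0.530 to 1.63 includes equal counts.

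Several other receptor tyrosine kinases were counted higher, while Erbb3 (1.34 CPM), Pdgfrb (0.667 CPM), Fgfr3 (0.187 CPM) and Fgfr2 were lower. Of 15 analysed, 12 reached 1 CPM, led by Axl, the receptor for GAS6, with 64.7 ± 7.78 CPM, Fgfr1 with 27.7 ± 3.95 CPM and the ephrin receptor Epha2 with 25.5 ± 1.02 CPM (SD, n = 3). Fgfr2 had 0 counts, and the floor of 3 counts over the libraries is 0.283 CPM. The median receptor stood at 3.30 CPM. The mean of Egfr lay below it, but the Poisson interval of Egfr, 1.68 to 3.71 CPM, includes that median. The mRNA of several EGFR ligands was counted in the same libraries. Hbegf, a membrane-anchored EGFR ligand, had 38.4 ± 3.21 CPM, and Ereg (epiregulin) 8.25 ± 2.01 CPM, while Areg (amphiregulin) had 1.61 ± 0.431 CPM (SD, n = 3). The EGFR ligand genes Egf and Epgn had 0.676 and 0.390 CPM, and Tgfa had no row in the count table. The ligand list reached 1 CPM in 10 of 19 members and was led by Fgf7 with 153.3 ± 5.67 CPM, Kitl with 110 ± 8.35 CPM and Pdgfa with 78.1 ± 5.49 CPM (SD, n = 3). Btc, a further EGFR ligand gene, had 0 counts, as did Fgf9 and Pdgfb.

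Between receptor and RAS, 12 of 16 adaptor and exchange factor genes reached 1 CPM. The phosphatase gene Ptpn11 had 208 ± 11.4 CPM, the adaptor Grb2 93.0 ± 6.11 CPM and the adaptor Crk 71.2 ± 13.3 CPM (SD, n = 3). The exchange factors Sos1 and Sos2 had 26.7 ± 3.84 and 9.79 ± 0.819 CPM (SD, n = 3), and Rasgrp2 and Rasgrf2 had 0 counts. Crk was lower in replicate 3, with 81.3, 76.1 and 56.1 CPM in replicates 1 to 3, and varied between the libraries (adjusted p = 0.0148 in the chi-square test described below), a call that was lost without replicate 3 (0.882) and without replicate 1 (0.0639).

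Hras (chromosome 7, 141189934 to 141194019), a RAS GTPase, was the highest of the 8 genes. It had 561, 697 and 639 counts, or 167, 173 and 199 CPM. The mean was 179.8 ± 17.0 CPM (SD, n = 3), above 95.2% of all genes. Replicate 3 was the highest library, and replicates 1 and 2 lay close together. Nras (chromosome 3, 103058285 to 103067914), its paralog, had 504, 567 and 412 counts, or 150.05, 141 and 128 CPM. The mean was 139.8 ± 10.9 CPM (SD, n = 3). Here replicate 3 was the lowest library. Hras exceeded Nras in 3 of 3 libraries, and the ranges did not overlap.

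The ratio of Nras to Hras was 0.898, 0.813 and 0.645 in replicates 1 to 3, and 0.786 ± 0.129 in the mean (SD, n = 3). Its exact (Clopper-Pearson) 95% interval over the pooled counts ran from 0.730 to 0.837, below equal counts. That interval leaves out the spread between libraries. The Hras share of the pair was 52.7% (49.6% to 55.7%) in replicate 1, which includes equal counts. It was 55.1% (52.4% to 57.9%) in replicate 2 and 60.8% (57.8% to 63.8%) in replicate 3. The ratio was lowest in replicate 3, where Hras was highest and Nras lowest. The summed level of the pair was 317, 314 and 327 CPM.

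The coding sequences of these RAS genes are alike, and the treatment of reads that match several genes is not stated in the sources used. In GENCODE M21 transcripts the coding sequence of Hras was 75.1% identical to that of Nras. The longest run of bases shared by Hras and Nras was 23 in the coding sequence and 10 in the last 500 bases of the transcripts, the end that the libraries keep. For Map2k1 and Map2k2 the runs were 56 and 9 bases. No exon of another gene overlaps Hras, Nras, Map2k1, Mapk3, Dusp6, Egfr or Spry2 in that annotation.

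All 11 RAS-family GTPases in the list reached 10 CPM and 8 reached 100 CPM. Rap1b, a RAP GTPase involved in adhesion, led with 338 ± 18.7 CPM, followed by Rheb, which activates mTORC1, with 285 ± 3.86 CPM and Rap1a with 201 ± 13.8 CPM (SD, n = 3), so that Hras and Nras stood at or above the median of the list, 139.8 CPM. Among the GTPase-activating proteins that switch RAS off, 6 of 7 reached 1 CPM. Rasa1 had 40.03 ± 8.04 CPM, Rasa2 16.3 ± 1.03 CPM, Rasal2 15.2 ± 1.75 CPM and Nf1 (neurofibromin) 9.29 ± 1.96 CPM (SD, n = 3). Genes of RAS lipid processing and trafficking all reached 1 CPM, 8 of 8, with the farnesyltransferase subunit Fnta at 182 ± 8.11 CPM, the protease Rce1 at 110 ± 1.57 CPM and Pde6d, a carrier of prenylated proteins, at 49.3 ± 0.968 CPM (SD, n = 3).

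**Figure D2:**
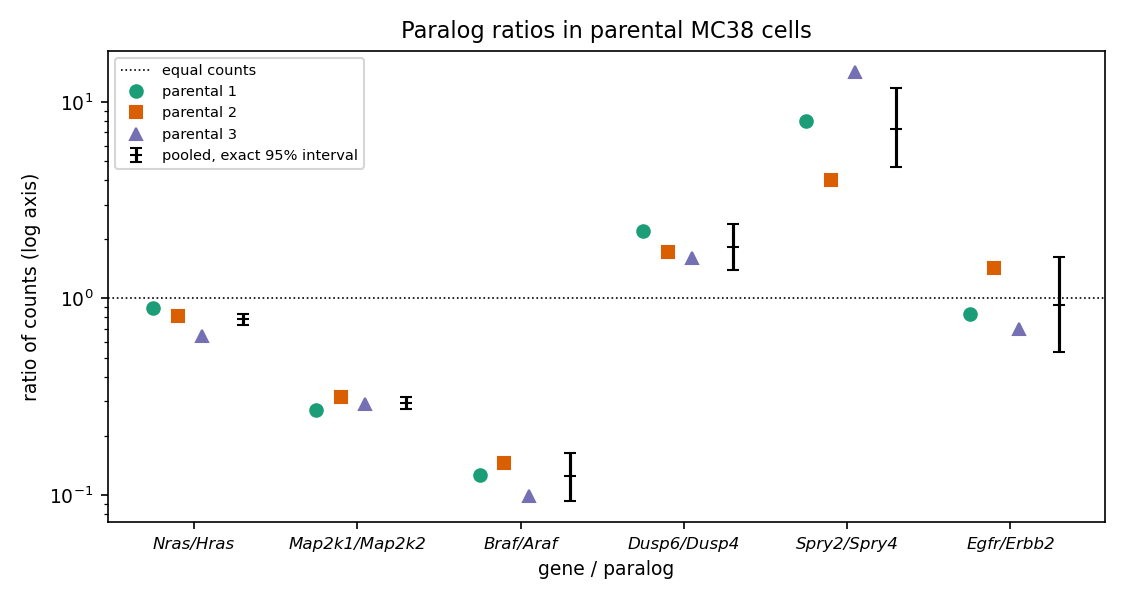
Ratio of the counts of each gene to those of a paralog (log axis) in the 3 parental libraries (colours), with the pooled ratio and its exact 95% interval for counting error (black) and a dotted line at equal counts. Nras, Map2k1 and Braf lie below their paralogs in every library, Dusp6 and Spry2 lie above theirs, and the interval for Egfr includes equal counts.

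Braf (chromosome 6, 39603231 to 39725658), the RAF kinase with the highest basal activity, had 19, 25 and 14 counts, or 5.66, 6.22 and 4.36 CPM. Its mean was 5.41 ± 0.953 CPM (SD, n = 3), and the pooled level had an exact Poisson 95% interval of 4.16 to 7.08 CPM. Replicate 3 was the lowest library. Araf, a RAF paralog, was higher in 3 of 3 libraries, with 44.1 ± 0.970 CPM (SD, n = 3). The ratio of Braf to Araf was 0.123 ± 0.0231 (SD, n = 3), with a pooled interval of 0.0931 to 0.164. Map3k1, a MAP kinase kinase kinase outside the RAF family, had 5.92 ± 0.825 CPM (SD, n = 3). In the GENCODE M21 transcripts, exons of Braf overlap those of Ndufb2 on the opposite strand, a respiratory chain gene with 223 ± 11.8 CPM (SD, n = 3), while the RefSeq positions of the 2 genes do not overlap. Strand assignment of the reads is not stated in the sources used, and reads of an overlapping pair could then not be told apart. Exons of Araf overlap those of Syn1 on the opposite strand in the same annotation. In the annotated transcripts the sequence after the stop codon was 7145 bases long in Braf and 6303 bases in Egfr, the 2 lowest genes. It was 612 to 3727 bases in the other 6. The paralogs Erbb2 and Spry1, with 2.81 and 4.77 CPM, had 1048 and 1047 bases there. Whether this length bears on the levels was not tested.

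Map2k1 (chromosome 9, 64185769 to 64253605), which encodes MEK1, had 290, 424 and 332 counts, or 86.3, 105 and 103 CPM. The mean was 98.4 ± 10.5 CPM (SD, n = 3), and replicate 1 was the lowest library. Map2k2, which encodes MEK2, had 338 ± 18.1 CPM (SD, n = 3) and was higher in 3 of 3 libraries. The ratio of Map2k1 to Map2k2 was 0.291 ± 0.0226 (SD, n = 3), with a pooled interval of 0.273 to 0.314.

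Mapk3 (chromosome 7, 126759626 to 126765816), which encodes ERK1, had 214, 265 and 198 counts, or 63.7, 65.9 and 61.7 CPM. Its mean was 63.8 ± 2.12 CPM (SD, n = 3), and its coefficient of variation of 3.32% was the smallest of the 8 genes. The atypical MAP kinase Mapk6 (ERK3) had 82.6 ± 9.56 CPM and Mapk7 (ERK5) 18.8 ± 0.689 CPM (SD, n = 3). The range of Mapk3 over the libraries lay below that of Mapk6, whose lowest library had 71.9 CPM, and above that of Mapk7.

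Around the kinases, 16 of 19 scaffolds and regulators reached 1 CPM. The phosphatase subunit Ppp1ca, part of a complex with SHOC2 and MRAS that activates RAF, had 3806 ± 151 CPM, the chaperone Hsp90ab1 2783 ± 62.5 CPM and the adaptor Ywhab 545 ± 7.03 CPM (SD, n = 3). The scaffold Ksr1 had 0.957 ± 0.223 CPM (SD, n = 3), and Cnksr1 had 0 counts. Of the kinases that ERK activates, 8 of 8 reached 1 CPM, led by Mknk1 with 30.3 ± 1.28 CPM, Mknk2 with 24.1 ± 1.49 CPM and Rps6ka3, which encodes RSK2, with 23.6 ± 0.488 CPM (SD, n = 3).

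Dusp6 (chromosome 10, 99263231 to 99267489), the cytoplasmic phosphatase that inactivates ERK, had 57, 55 and 48 counts, or 17.0, 13.7 and 14.95 CPM. The mean was 15.2 ± 1.66 CPM (SD, n = 3), above 73.0% of all genes. Its exact Poisson interval was 12.9 to 17.6 CPM. The nuclear ERK phosphatase genes Dusp4 and Dusp5 had 8.35 ± 0.870 and 10.1 ± 1.62 CPM (SD, n = 3). The ratio of Dusp6 to Dusp4 was 2.19, 1.72 and 1.60 in replicates 1 to 3, above 1 in 3 of 3 libraries, with a pooled interval of 1.39 to 2.39. All 11 dual-specificity phosphatase genes reached 1 CPM, and Dusp6 was not the highest. Dusp9, a cytoplasmic relative of Dusp6, had 89.9 ± 5.49 CPM, the stress-induced Dusp1 47.3 ± 3.62 CPM and Dusp14 38.9 ± 2.22 CPM (SD, n = 3).

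Spry2 (chromosome 14, 105891947 to 105896819), a Sprouty protein that restrains receptor signalling to RAS, had 48, 48 and 71 counts, or 14.3, 11.9 and 22.1 CPM. Replicate 3 was the highest library, at 1.85-fold the lowest. The mean was 16.1 ± 5.33 CPM (SD, n = 3), and the coefficient of variation of 33.1% was the largest of the 8 genes. Without replicate 3 the mean was 13.1 CPM. Its relatives Spry1, whose GENCODE M21 exons overlap those of Gm42922 on the opposite strand, and Spry4 were lower, with 4.77 ± 0.737 and 2.11 ± 0.767 CPM (SD, n = 3). The ratio of Spry2 to Spry4 was 8, 4 and 14.2, and Spry4 had only 23 counts over the libraries. All 6 Sprouty and SPRED genes analysed reached 1 CPM. Spred1 was the highest of them with 22.3 ± 2.15 CPM, and Spred2 had 8.24 ± 0.242 CPM (SD, n = 3). Of 8 other feedback inhibitors 6 reached 1 CPM, led by Errfi1, an inhibitor of EGFR, with 26.6 ± 3.69 CPM, Lrig1 with 19.2 ± 1.33 CPM and Sh2b3 with 9.32 ± 1.11 CPM (SD, n = 3).

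Transcription factors and other genes known to respond to ERK ranged widely. Of 28 analysed, 23 reached 1 CPM and 11 reached 100 CPM, with a median of 43.3 CPM. The cyclin gene Ccnd1 led with 902 ± 42.2 CPM, followed by the AP-1 subunits Fosl1 and Jun. The ETS factors Etv4 and Etv5 differed in level, with 32.1 ± 4.46 and 2.35 ± 0.423 CPM (SD, n = 3). The immediate early gene Egr1 had 12.6 ± 0.120 CPM (SD, n = 3). Of other immediate early genes, Jun, Ier3, Myc, Junb and Ier2 were among those higher, with 482, 198, 170, 146 and 136 CPM. Fosb, Egr3, Fos and Egr2 were lower, with 1.42, 0.406, 0.369 and 0.0992 CPM. These levels rest on only 15, 4, 4 and 1 counts over the libraries. The collagenase gene Mmp13 had 0 counts. Over the 15 role lists together, 136 of 164 genes analysed reached 1 CPM, 93 reached 10 CPM and 34 reached 100 CPM, and their median was 14.7 CPM.

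**Figure D3:**
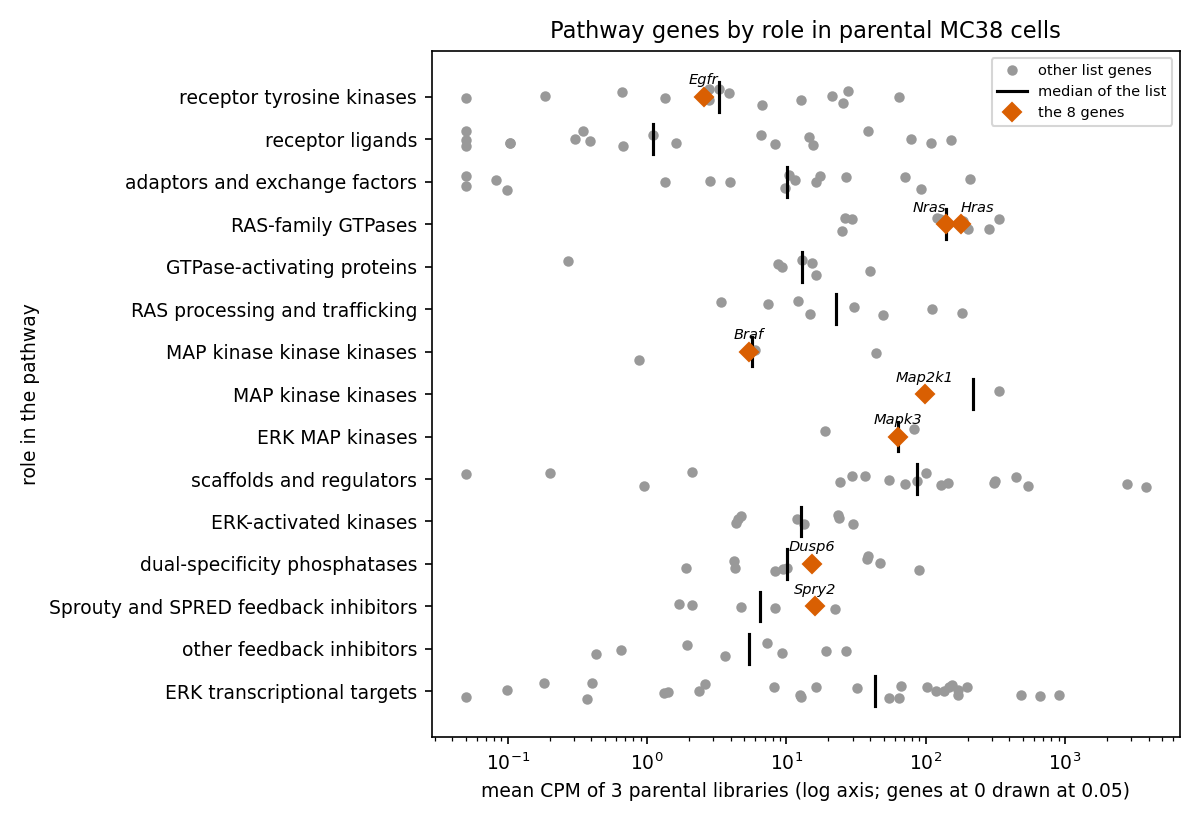
Mean level in CPM over the 3 parental libraries (log axis) of every pathway gene analysed, by role, with the median of each list (line) and the 8 genes marked. Hras and Nras lie at or above the median of the RAS-family GTPases, 139.8 CPM. Egfr lies below the median of the receptors, 3.30 CPM, a value inside the Poisson interval of Egfr.

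Each gene was then compared across the 3 parental libraries with a chi-square test, which sets library against library and says nothing of a condition. Of 11118 genes tested, 311 varied at a Benjamini-Hochberg adjusted p below 0.05, a background of 2.8%, and 13.2% had an unadjusted p below 0.05. None of the 8 RAS-MAPK genes passed, 0 of 8 also by pairwise exact binomial tests, and 3 of the 8 had an unadjusted p below 0.05. Those were Spry2 (adjusted p = 0.0637), Hras (adjusted p = 0.12) and Map2k1 (adjusted p = 0.2999). Nras had an adjusted p of 0.381 and the other 4 genes of 0.835 to 0.952. Across the alternatives the adjusted p ran from 0.0407 to 0.882 for Spry2 and from 0.0956 to 0.958 for Hras. Spry2 passed with replicate 1 left out, at an adjusted p of 0.0407, and with a minimum expected count of 20, at 0.0499. Without replicate 3, the library farthest from the others in 192 of the 311 genes called, the adjusted p of Spry2 was 0.882 and that of Hras 0.958. A p above the threshold does not show that the libraries were equal, which holds most for Egfr and Braf with 27 and 58 counts.

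Over the role lists 4 of 131 genes tested (3.05%) varied, a share near the background of 2.8%, so the count is not a result about the lists. They were the regulators Ppp1ca and Hsp90ab1, Crk and Ccnd1. Ccnd1 had 900, 861 and 945 CPM in replicates 1 to 3 (adjusted p = 0.0161), and Ppp1ca had 3980, 3720 and 3717 CPM. Without replicate 3 the adjusted p was 0.519 for Ccnd1 and 0.468 for Hsp90ab1, and without replicate 2 it was 0.5195 for Ccnd1 and 0.724 for Hsp90ab1. Without replicate 1 it was 0.927 for Ppp1ca. Hsp90ab1 also missed the threshold with library totals (0.134), TMM (0.158) and a minimum expected count of 1 (0.0522). Each of the 4 calls was thus lost when at least 1 library was left out.

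**Figure D4:**
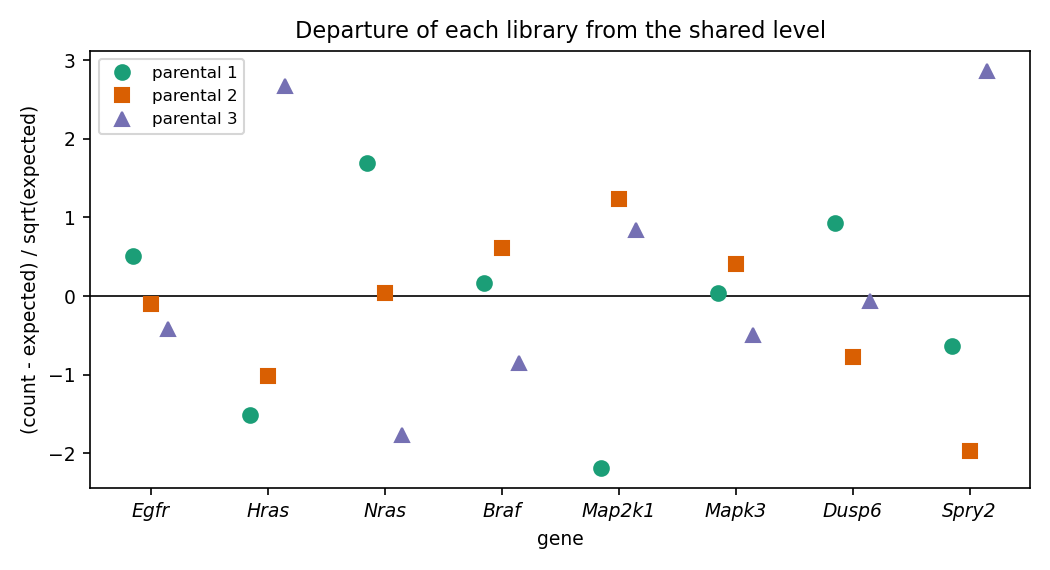
Difference between the count and the count expected at a level shared by all libraries, divided by the square root of the expected count, for the 8 genes in the 3 parental libraries. Spry2 and Hras in replicate 3 lie highest, at 2.87 and 2.68. Map2k1 in replicate 1 lies lowest, at -2.19, followed by Spry2 in replicate 2 at -1.97 and Nras in replicate 3 at -1.76.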

How the data were processed

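Bulk 3'-end libraries were analysed for 3 parental MC38 samples. The values deposited by the authors are raw counts per gene. Per the file headers, untrimmed reads were aligned to GRCm38 by STAR 2.7.5b with the GENCODE M25 annotation, and processed with Picard 2.18.26 and version 1.12 of Drop-seq tools. The primers carried molecular identifiers, per the labels' protocols, but no source used here says if these were used to collapse the counts, and amplification may add to the spread. Columns that the deposited annotation names WT, with a replicate number, were taken as the parental samples of the same genotype and number. There are 6 more columns in the table, in 2 sets of 3, which outnumber the 3 STING-N153S samples and were not used. The planned comparison with edgeR was therefore not run.

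The 8 members and the 15 role lists were chosen with earlier results of these data known. The lists hold 179 genes, of which the 164 with a row in the count table were analysed. Some genes of the planned lists and pairs are not reported here and were left out of the lists. The text names the members, paralogs of them, the 3 highest genes of each list, list genes with 0 counts or called by a test, and further list genes picked as examples after their values were seen. No genes of like pattern were sought, since 3 libraries define no pattern. Totals per library were 3358908, 4020023 and 3210024 counts, and a floor of 3 counts is 0.893, 0.746 and 0.935 CPM in a library and 0.283 CPM over all. Variation between libraries was tested with a chi-square test against library sizes scaled by median ratios (DESeq2 1.42.0). A gene's expected count had to be 5 or more in every library. The test was also run on simulated counts that held counting noise only, apart from a set of changed genes. In the real libraries 13.2% of genes had an unadjusted chi-square p below 0.05. The simulation therefore cannot show how the test performs on libraries that vary beyond counting noise. TMM and upper-quartile scaling used edgeR 4.0.16. Python 3.11.15 (scipy 1.17.1, statsmodels 0.14.6, pandas 2.3.3) and R 4.3.3 were used. Alternatives changed the scaling, the minimum count, the test and the libraries. Gene positions and promoters are from RefSeq on GRCm38.p6, and transcripts from GENCODE M21, an earlier release than that of the counts on the same build.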

Additional observations from a re-analysis of the deposited data

How the results depend on the processing

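All alternatives reported were planned. Those for the STING-N153S comparison (other normalization, DESeq2, no filter, the replicate block) were not run, since no column was tied to those samples. No paired analysis was possible because 1 group, the parental one, entered the analysis. When the 20 highest genes were dropped from the library totals, a step that raises every remaining level, Hras stood at 198 CPM, Nras at 154 CPM and Mapk3 at 70.2 CPM, and the other 5 genes moved by less than 1 SD. The scalings by TMM, median ratios and upper quartile moved all 8 levels by less than 1 SD. The number of the 8 genes that varied between libraries, 0 by the test reported, was 1 with a minimum expected count of 20 and 0 to 1 with a library left out, the gene being Spry2. Over all genes the number ran from 58 without parental replicate 3 to 231 with a library left out, where the test also has fewer libraries to work with. Ratios of paralogs and counts of pathway genes at each level kept within 1 SD and within 1.5 times. Depth limits Egfr and Braf most, with 27 and 58 counts.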
